A study of Homo sapiens with 48 samples.

Results

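The messenger RNA of 50 genes of DNA replication and nucleotide supply was read in H1975 cells, a human lung adenocarcinoma line. Its EGFR gene carries an activating mutation and a mutation known for resistance to gefitinib. The members were taken by symbol from the authors' table of raw counts per gene, which held all 50 among 27978 symbols. All 50 were among the 15789 genes with enough counts to be tested. The study measured RNA in 48 libraries, 3 in each of 16 groups, and its title asks whether the preparations reduce gefitinib resistance. Untreated cells were taken at 0 h and at 24 h. All other groups were labelled 24 h. Single agents were gefitinib, an inhibitor of the EGFR kinase, at 50 or 75 µM; compound kushen injection (CKI), an herbal preparation, at 1 or 2 mg/mL; and YFSJ, a preparation that the labels name only by these letters, at 2.5 or 5 mg/mL. The 8 combination groups paired each gefitinib dose with each dose of CKI and each dose of YFSJ. All libraries came from 1 cell line, and the labels call the 3 libraries of a group biological replicates without saying what separated them, so p-values measure the spread between these libraries.

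Before a cell copies its DNA, the origin recognition complex with CDC6 and CDT1 loads the ring of MCM2 to MCM7, the replicative helicase, onto origins. CDC45 and the GINS complex then turn the ring into an active helicase, polymerase alpha and primase start each strand, and polymerases epsilon and delta, held by the sliding clamp PCNA, extend it, while ribonucleotide reductase and thymidylate synthase supply the nucleotides. In cycling cells most of these genes are transcribed around the G1 to S boundary under E2F factors, so their RNA is widely read as a mark of cells entering S phase. In bulk libraries such as these, fewer cells in S phase and less RNA per cell cannot be told apart.

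The libraries held from 16428398 to 26264162 counts. A floor of 3 counts corresponded to 0.107 to 0.193 CPM (counts scaled to a common library size with TMM factors), far below every member's level, and covers counting error only. Of marker lists, 4 of 10 lung epithelial genes reached 1 CPM in the median library, among them NKX2-1 at 44.7 CPM, while the surfactant genes SFTPC and SFTPA1 were at a median of 0. Because the labels also give a catalogue number of a breast line, breast markers were read. ESR1 had a median of 0.125 CPM and PGR had 0 counts in all 48 libraries. The 3 of 8 breast markers that reached 1 CPM were XBP1 at 190 CPM, FOXA1 at 2.17 CPM and AREG at 2.03 CPM. The identity of the line was not tested further. The fibroblast list had 3 of 6 genes at 1 CPM or more, led by COL1A1 at 386 CPM, and the blood list 0 of 6. Liver transcripts set 10 libraries apart, with 2581 to 3557 counts of the albumin gene ALB against 0 to 8 in the other 38, and the summed liver list ran from 44.4 to 324 CPM. These 10 were all 3 libraries of YFSJ 2.5 mg/mL, all 3 of CKI 2 mg/mL with gefitinib 75 µM, libraries 1 and 3 of CKI 2 mg/mL with gefitinib 50 µM, and libraries 2 and 3 of CKI 1 mg/mL with gefitinib 75 µM. The mitochondrial ribosomal RNA gene RNR2 took 1.22% and 1.69% of counts in libraries 1 and 2 of untreated 0 h against 0.457% in library 3, and 2.18% in library 2 of YFSJ 2.5 mg/mL with gefitinib 75 µM. Most results that rest on such libraries are given with and without them, or with 1 library left out. Where all 3 libraries of a group carried albumin transcripts, a fit with a term for the albumin libraries is given instead. That term rests only on the groups that held both kinds of library, CKI 1 mg/mL with 75 µM and CKI 2 mg/mL with 50 µM. Its use in the other groups assumes the same difference there.

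In untreated cells at 24 h the members differed widely in level. Per kilobase of exon, MCM7 was the highest at 246 CPM per kb, followed by PCNA at 175 and TK1 at 155, against a member median of 33.6. The lowest were POLD3, a subunit of polymerase delta, at 6.43 CPM per kb, and CLSPN, which encodes the checkpoint mediator claspin, at 6.47. No strand setting of the counting is given, so reads of a gene and of a partner on the opposite strand cannot be told apart. Of the 50 members, 19 share exon bases with another annotated gene, and 9 share over 10% (DUT, GINS3, GINS4, MCM2, POLA2, POLD1, PRIM1, RRM2 and TYMS). TYMS shares 58.2% of its exon bases with ENOSF1 on the opposite strand, so its level is uncertain.

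The promoters of most members are in the RefSeq table used here, and 4 are printed because they show how the E2F word differs between members that all fell with gefitinib. They were picked after the values were seen. For 43 of the 50 members the table (GRCh38.p14) held the window from 250 bases before to 50 after the start site, 300 bases in all. The words TTTCCCGC, TTTCGCGC, TTTGCCGC and TTTGGCGC, common forms of the E2F site, were searched on both strands. At least 1 of the 4 words stood in 20 of 43 member windows (46.51%), against 908 of all 27305 windows (3.325%). The word CCAAT, read on both strands, stood in 24 member windows (55.81%) against 35.7% of all. TTTGAA or TTCGAA, forms of the CHR element of genes expressed late in the cycle, stood in 2 member windows (4.651%) against 16.62% of all. Capitals below mark E2F words, and all 4 windows run 5′ to 3′ along the gene. The MCM6 window, chr2:135876394-135876693 on the - strand, held 2 pairs of overlapping words, each a TTTGGCGC with a TTTCGCGC of the opposite strand 4 bases on. The CDC6 window, chr17:40287629-40287928 on the + strand, held 1 word, which starts 7 bases past the start site. The UHRF1 window, chr19:4909251-4909550 on the + strand, held 1 word on the opposite strand, and the MCM10 window, chr10:13161308-13161607 on the + strand, held none of the 4.
MCM6 promoter: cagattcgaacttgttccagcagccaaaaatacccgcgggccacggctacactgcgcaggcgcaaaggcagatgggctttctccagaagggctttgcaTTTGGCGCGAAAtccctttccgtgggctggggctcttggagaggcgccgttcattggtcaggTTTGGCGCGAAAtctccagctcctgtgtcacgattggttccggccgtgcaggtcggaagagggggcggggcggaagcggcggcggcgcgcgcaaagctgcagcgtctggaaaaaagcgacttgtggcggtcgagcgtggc
CDC6 promoter: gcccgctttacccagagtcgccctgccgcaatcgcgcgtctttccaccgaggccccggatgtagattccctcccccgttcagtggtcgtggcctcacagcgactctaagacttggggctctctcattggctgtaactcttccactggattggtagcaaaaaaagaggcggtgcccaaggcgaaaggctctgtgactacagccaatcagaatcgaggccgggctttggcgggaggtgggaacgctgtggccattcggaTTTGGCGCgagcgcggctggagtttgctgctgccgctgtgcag
UHRF1 promoter: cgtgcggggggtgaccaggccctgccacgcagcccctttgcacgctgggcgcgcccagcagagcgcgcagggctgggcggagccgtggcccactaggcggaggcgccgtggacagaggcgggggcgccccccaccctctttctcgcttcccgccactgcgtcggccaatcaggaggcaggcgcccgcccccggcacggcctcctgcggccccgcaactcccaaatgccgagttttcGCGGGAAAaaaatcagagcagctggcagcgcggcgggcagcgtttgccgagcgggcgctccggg
MCM10 promoter: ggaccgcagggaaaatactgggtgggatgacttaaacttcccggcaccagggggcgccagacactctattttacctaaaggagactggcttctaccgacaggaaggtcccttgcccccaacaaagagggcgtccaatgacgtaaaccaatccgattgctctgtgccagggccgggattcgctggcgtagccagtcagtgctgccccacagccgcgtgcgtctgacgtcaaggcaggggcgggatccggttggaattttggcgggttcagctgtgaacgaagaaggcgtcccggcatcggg
A match is a run of letters and says nothing of whether a factor binds there, and the lack of one says only that these letters are not in the window.

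Over 24 h without treatment the members as a set moved little: 3 were lower and 9 higher at 24 h than at 0 h, where 14.4% and 10.8% of all genes tested were called (edgeR quasi-likelihood test, Benjamini-Hochberg adjusted p under 0.05 over all 15789 genes, here and below). Their median log2 fold change was -0.01 against 0.00 for all genes. PCNA, the sliding clamp, had 125, 164 and 225 CPM at 0 h and 250, 269 and 253 CPM at 24 h. No 24 h library overlapped the 0 h libraries, and library 3 of 0 h lay closest. PCNA rose by 0.59 ± 0.12 on the log2 scale (SE, n = 3 per group, adjusted p = 0.000374), ORC6, a subunit of the origin recognition complex, by 0.51 ± 0.12, and the clamp loader subunit RFC3 by 0.48 ± 0.12. The 3 lower members were the helicase subunits MCM2 (-0.30 ± 0.10) and MCM4 (-0.25 ± 0.09) and the flap nuclease FEN1 (-0.26 ± 0.09). CLSPN had the most negative value, -0.33 ± 0.15, which missed the threshold (adjusted p = 0.0904). There were 2 calls without 0 h library 1, 7 without library 2 and 16 without library 3. With library 3 as the only 0 h library, assumed to vary like the other groups, 0 members were called, and likewise 0 in a fit of all 6 libraries of this comparison alone. Libraries 1 and 2 had the high RNR2 share, and its part in these calls was not tested. When scaled by library totals, 0 members were lower and 11 higher. That scaling also moved the median of all genes to 0.08, and no share of all genes called was counted there.

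Gefitinib alone lowered every member at both doses. At 50 µM all 50 members were lower than in untreated cells at 24 h, where 26.8% of all genes were lower, and at 75 µM again all 50, where 27.1% were. Median log2 fold changes of the members were -1.86 and -1.82, against 0.03 and 0.02 for all genes. For each of the 50, every gefitinib library lay below every untreated library, which held for 28.6% of all genes at 50 µM and 30.4% at 75 µM. Members took 0.615 to 0.634% of all counts in untreated 24 h libraries and at most 0.209% in gefitinib libraries.

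By role, helicase activation had the most negative median at 75 µM, -2.37 over 6 members that ran from -3.69 for MCM10 to -1.11 for GINS3. MCM10, which binds the loaded helicase as origins fire, had 40.6, 42.3 and 41.9 CPM in untreated cells and 3.39, 2.73 and 3.57 CPM at 75 µM. The gefitinib libraries were all far below the lowest untreated one. The log2 fold change was -3.69 ± 0.15 (SE, n = 3, adjusted p = 1.42e-24), and -3.70 ± 0.15 at 50 µM. CDC45 changed by -2.38 ± 0.11 and GINS2 by -2.75 ± 0.11, while GINS3, another subunit of the same complex, changed by -1.11 ± 0.09. Among licensing genes ORC1, the largest subunit of the origin recognition complex, had 32.6, 26.4 and 26.8 CPM in untreated cells and 4.96, 3.43 and 4.44 CPM at 75 µM. CDC6, the loading ATPase, fell from 109, 94.3 and 102 CPM to 23.3, 23.5 and 20.6 CPM, a log2 change of -2.18 ± 0.11 (adjusted p = 2.75e-21). CDT1, its partner, and GMNN, the CDT1 inhibitor geminin, changed by -1.69 ± 0.12 and -1.71 ± 0.11.

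Nucleotide supply genes fell by unequal amounts. RRM2, the regulatory subunit of ribonucleotide reductase, had 347, 308 and 325 CPM in untreated cells and 44, 45.1 and 42.6 CPM at 75 µM. Its log2 change of -2.90 ± 0.12 was larger than that of the catalytic subunit RRM1 (-1.59 ± 0.10). TYMS, thymidylate synthase, changed by -3.16 ± 0.18 with the strand limit above, and DUT, which removes dUTP, by -1.25 ± 0.10. UHRF1, which guides maintenance DNA methylation to new DNA, fell from 324, 356 and 368 CPM to 47.1, 46.4 and 50.6 CPM, while DNMT1, the methyltransferase it guides, changed by -1.42 ± 0.10. FAM111B, a protease gene, changed by -3.37 ± 0.19 and CLSPN by -2.97 ± 0.18.

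By role, the smallest median falls at 75 µM were -1.09 over the 3 single-strand binding genes and -1.31 over 4 subunits of polymerases epsilon and delta, which included POLE2 at -2.13 ± 0.18. RPA1, the large subunit of the single-strand binding protein, had 189, 161 and 180 CPM in untreated cells and 111, 111 and 102 CPM at 75 µM. These groups did not overlap either, with a log2 change of -0.71 ± 0.07 (adjusted p = 5.35e-11), and RPA3 and RPA2 changed by -1.09 ± 0.10 and -1.12 ± 0.09. POLE, the catalytic subunit of polymerase epsilon, changed by -1.19 ± 0.13 and POLA1, that of polymerase alpha, by -1.63 ± 0.11. The MCM ring fell over a narrow range, from -2.17 ± 0.11 for MCM5 to -1.30 ± 0.12 for MCM7, with MCM3 at -1.99 ± 0.07. PCNA changed by -2.36 ± 0.12, RFC3 by -2.27 ± 0.13 and FEN1 by -1.70 ± 0.09.

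Between gefitinib 50 and 75 µM no member was called: 0 of 50 passed by edgeR, where 0.0317% of all genes did, and 0 by DESeq2. At unadjusted p under 0.05 there were 2, and the share of all genes at that p was not counted. Members ran from -0.37 for PRIM2, a primase subunit, to 0.31 for CDT1. Of 38 other replication and nucleotide genes, a list drawn up with earlier results known, 31 were lower and 1 higher at 75 µM. The largest falls there were in DTL (-2.92 ± 0.15), an adaptor for CDT1 destruction, and HELLS (-2.62 ± 0.15), a chromatin remodeller. The only rise was in POLD4 (0.54 ± 0.14), the smallest subunit of polymerase delta.

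**Figure D1:**
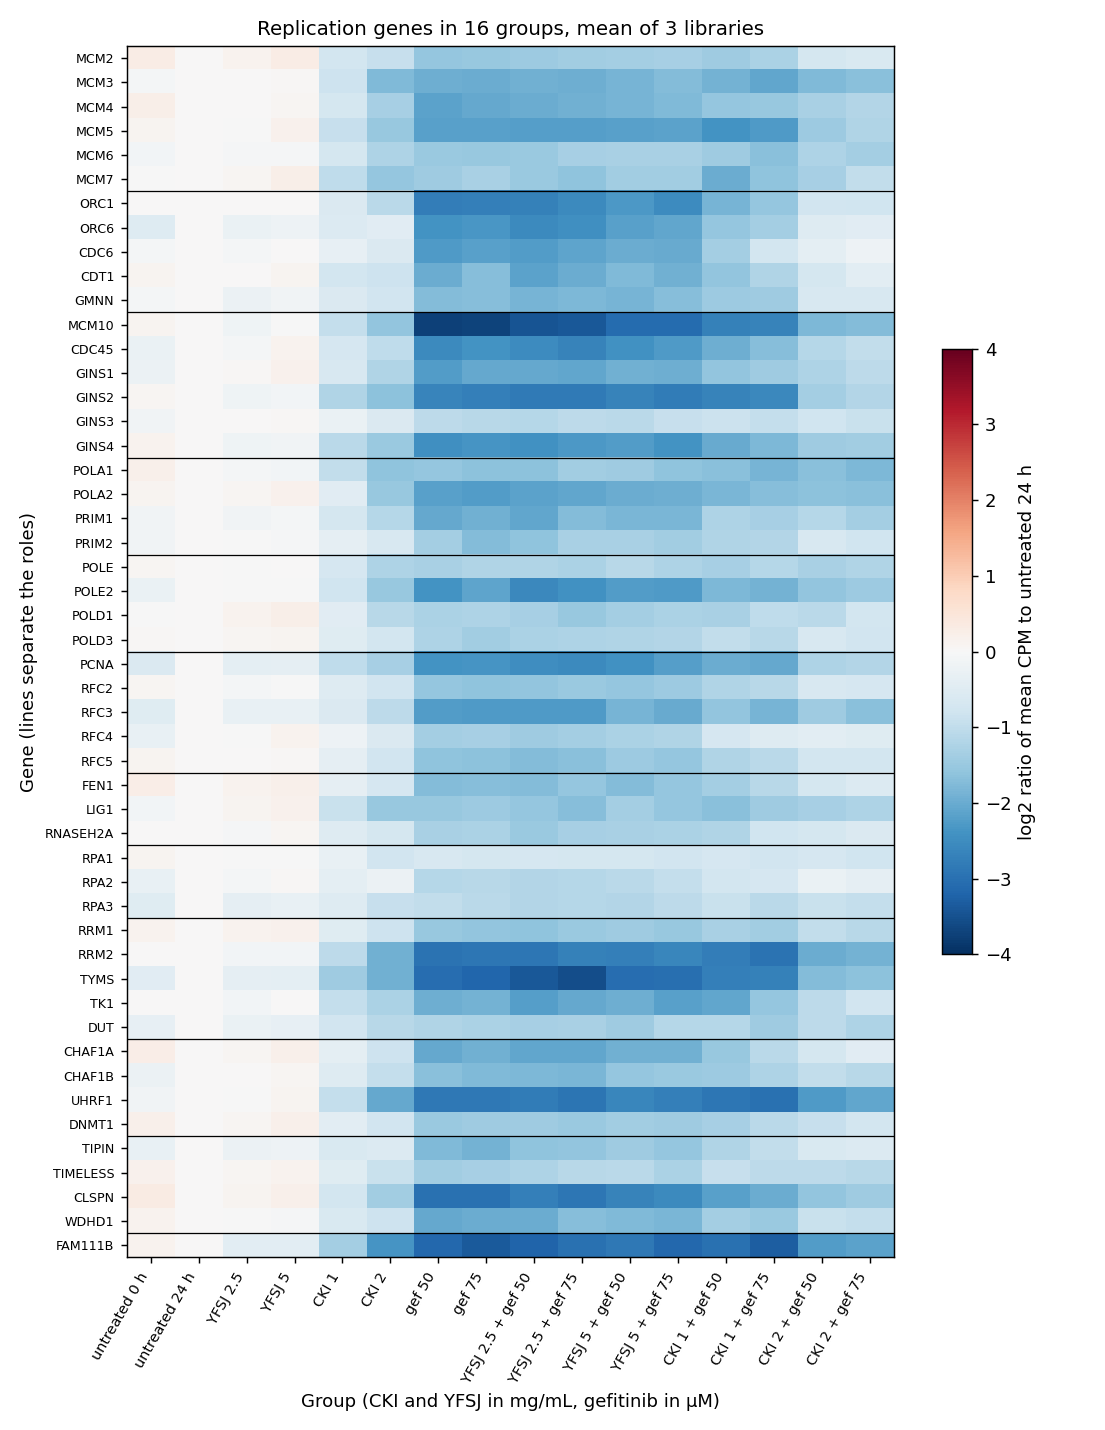
Log2 ratio of each member's mean CPM to its mean in untreated 24 h cells (colour), for 50 genes (rows, lines separate roles) in 16 groups (columns, mean of 3 libraries; CKI and YFSJ in mg/mL, gefitinib in µM). All 50 are below untreated in the 10 groups with gefitinib and in both CKI groups, and the darkest cells are those of MCM10, FAM111B, TYMS, RRM2, UHRF1 and CLSPN with gefitinib.

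CKI alone also lowered the members, less than gefitinib did. At 1 mg/mL 49 of 50 were lower and 0 higher, where 14.7% of all genes were lower, and at 2 mg/mL all 50, where 27.1% were. Medians were -0.63 and -1.07, against -0.03 and -0.01 for all genes. Every CKI library lay below every untreated 24 h library in all 50 members at both doses, which held for 22.8% and 29.7% of all genes. The exception at 1 mg/mL was RFC4, a clamp loader subunit, with 55.7, 52.5 and 54.5 CPM against 63.4, 61.1 and 63.2 CPM in untreated cells (log2 change -0.21 ± 0.11, adjusted p = 0.161).

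The order of the members under CKI was not that under gefitinib. At 2 mg/mL the largest falls were in FAM111B (-2.38 ± 0.17), UHRF1 (-2.06 ± 0.10) and RRM2 (-1.93 ± 0.11). RRM2 had 154, 148 and 169 CPM at 1 mg/mL and 90.4, 73.8 and 93.2 CPM at 2 mg/mL, so that the untreated, low-dose and high-dose libraries formed 3 levels without overlap. MCM10 had 23.2, 19.6 and 22.3 CPM and then 15.7, 11.6 and 14.2 CPM, a log2 change at the higher dose of -1.59 ± 0.12 (adjusted p = 1.74e-14). The licensing genes changed by smaller amounts, from -1.09 ± 0.12 for ORC1 to -0.47 ± 0.12 for ORC6, with CDC6 at -0.59 ± 0.10 and CDT1 at -0.83 ± 0.12. CDC6 had 84, 80.6 and 80.7 CPM at 1 mg/mL and 74.4, 58.9 and 69.6 CPM at 2 mg/mL. The MCM ring changed by more than the licensing genes, with a median of -1.43 over its 6 members against -0.77 over the 5 licensing genes. RPA2 had the smallest fall, -0.25 ± 0.09 (adjusted p = 0.016), with GMNN at -0.77 ± 0.10, CDC45 at -1.02 ± 0.10, RFC3 at -1.05 ± 0.12, FEN1 at -0.68 ± 0.09 and RPA3 at -0.92 ± 0.10.

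From 1 to 2 mg/mL CKI 39 members fell and 0 rose, where 17.6% of all genes fell. UHRF1 fell by a further 1.11 ± 0.10 on the log2 scale and FAM111B by 1.03 ± 0.17. POLA1, the catalytic subunit of polymerase alpha, had 17.9, 16.9 and 21.8 CPM and then 12.7, 11.3 and 13.2 CPM. MCM2, ORC6, CDT1, GMNN, PRIM2, POLD3, RNASEH2A, RPA2, TK1, TIPIN and WDHD1 did not pass. RPA2 had the most positive value, 0.14 ± 0.09 (adjusted p = 0.227). Of the other replication list, 28 of 38 were lower at 2 mg/mL, among them HELLS (-2.00 ± 0.14), and 2 higher, RRM2B (0.42 ± 0.12) and ORC4 (0.30 ± 0.10). RNR2 took 0.919 to 1.16% of counts in the 2 mg/mL libraries and 0.464 to 0.582% in untreated ones, and its part in these values was not tested. Scaling by library totals moved the median of all genes by 0.198 for CKI 2 mg/mL against untreated cells, where 48 members were then lower. For CKI 2 against 1 mg/mL that scaling put it at 0.11, with 29 members lower and 1 higher.

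Set directly against gefitinib 75 µM, CKI 2 mg/mL left 42 members higher and 0 lower, where 27.1% of all genes were higher. The median was 0.80 and the largest differences were in MCM10 (2.09 ± 0.15), ORC6 (1.87 ± 0.13) and ORC1 (1.66 ± 0.14), with CDC6 at 1.59 ± 0.11. The members that did not pass were DUT, LIG1, MCM7, POLA1, POLD1, POLE, RPA1 and RPA3. POLA1 had 11.4, 12 and 13.2 CPM with gefitinib and 12.7, 11.3 and 13.2 CPM with CKI, overlapping groups. MCM7 had the most negative difference, -0.24 ± 0.11 (adjusted p = 0.0754).

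YFSJ alone changed few members. At 2.5 mg/mL RPA3 was the 1 member called, lower by -0.35 ± 0.09 (adjusted p = 0.0308), where 0.918% of all genes were lower, and at 5 mg/mL RPA3 (-0.29 ± 0.09) and DUT (-0.33 ± 0.10) were called, where 2.2% were. RPA3, the small subunit of the single-strand binding protein, had 115, 103 and 111 CPM in untreated cells, 84.4, 93.6 and 80.9 CPM at 2.5 mg/mL and 84.2, 97.9 and 86.6 CPM at 5 mg/mL. All YFSJ libraries were below the lowest untreated one. PCNA had 198, 205 and 184 CPM and 205, 209 and 191 CPM, also below all 3 untreated libraries, with log2 changes of -0.40 ± 0.12 and -0.35 ± 0.12 that missed the threshold (adjusted p = 0.0502 and 0.0584). The most negative values at both doses were those of FAM111B, near -0.41 ± 0.15, and the most positive those of MCM2, 0.16 ± 0.10 and 0.30 ± 0.10, none called. At unadjusted p under 0.05, 8 and 11 members differed, and DESeq2 called 2 and 4. The shares of all genes for these counts were not computed. Medians were -0.02 and 0.04. Between the doses 0 members were called by edgeR, where 0.374% of all genes were, and 0 by DESeq2. Here 1 had an unadjusted p under 0.05, again with no share of all genes computed. All 3 libraries of the lower dose carried the albumin transcripts; with a term for those libraries 0 members were called at 2.5 mg/mL and 0 between the doses. Leaving out any 1 library other than library 2 of YFSJ 2.5 mg/mL left 0 calls there, and leaving out untreated 24 h library 1 or 2, or library 1 or 3 of YFSJ 5 mg/mL, left 0 at the higher dose. Other replication genes gave 1 call at each dose, a lower SLBP, the histone mRNA binding protein (-0.34 ± 0.09 and -0.31 ± 0.09).

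**Figure D2:**
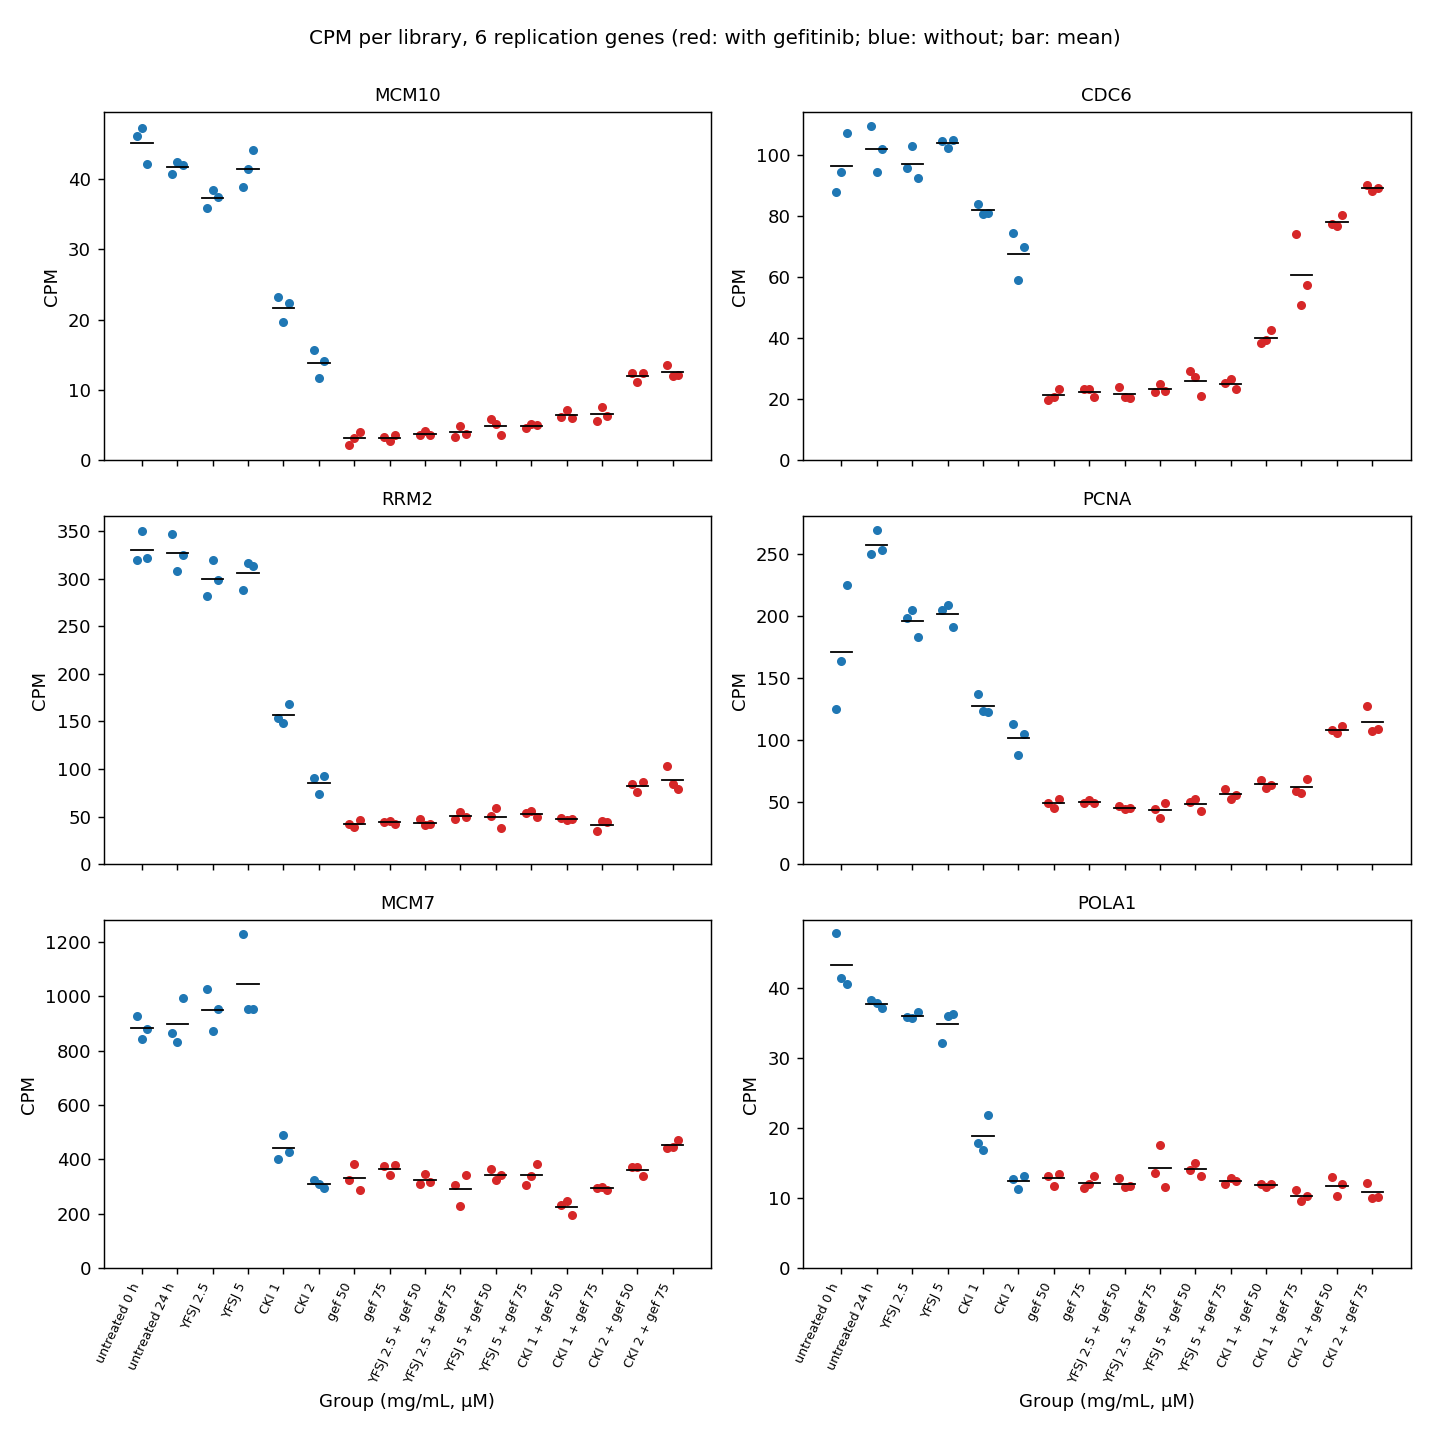
CPM in each of the 48 libraries (points; bars are means of 3) for MCM10, CDC6, RRM2, PCNA, MCM7 and POLA1, with groups along the x axis, gefitinib groups in red and the others in blue; each y axis starts at 0. CDC6 runs from 19.9 to 29.2 CPM with gefitinib alone or with YFSJ and from 88.2 to 90 CPM with CKI 2 mg/mL and gefitinib 75 µM, while POLA1 stays between 9.57 and 17.6 CPM in all gefitinib groups.

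When CKI was added to gefitinib the members rose rather than fell. The sample labels give no order of addition, so added here and below names a comparison, not a sequence. With CKI 1 mg/mL, 24 were higher and 1 lower than with gefitinib 50 µM alone, where 15.5% and 16.2% of all genes were, and 29 higher and 1 lower than with 75 µM alone, where 17.3% were in each direction. With CKI 2 mg/mL, 42 were higher and 0 lower at 50 µM, where 26.6% of all genes were higher, and again 42 and 0 at 75 µM, where 28.8% were. Medians over the members were 0.30, 0.39, 0.87 and 0.89 in that order, against 0.00, 0.00, -0.01 and -0.01 for all genes. In 23 members the rise was called in all 4 additions. The share of all genes called higher in all 4 was not counted, so this number has no background to be set against. The members nonetheless stayed below untreated cells: in each CKI combination all 50 had every library under every untreated 24 h library, which held for 31.3%, 33.3%, 33.6% and 34.9% of all genes.

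Licensing genes rose most, 5 of 5 at each CKI 2 mg/mL addition. CDC6, the loading ATPase, had 90, 88.2 and 89.1 CPM with CKI 2 mg/mL and gefitinib 75 µM against 23.3, 23.5 and 20.6 CPM with gefitinib alone. Its combination libraries lay just under the untreated range of 94.3 to 109 CPM and above all 3 libraries with CKI alone. The rise was 1.99 ± 0.11 on the log2 scale (adjusted p = 1.87e-19) and 1.43 ± 0.11 with CKI 1 mg/mL, where the libraries held 74.1, 50.7 and 57.4 CPM. ORC1 rose by 1.96 ± 0.14 and ORC6 by 1.88 ± 0.13 at 75 µM, and ORC1 had the largest rise at 50 µM, 2.01 ± 0.14. ORC6 had 47.5, 43 and 41.4 CPM in the combination and 47.5, 38 and 46.3 CPM with CKI 2 mg/mL alone, overlapping groups. CDT1 rose by 1.28 ± 0.12 and its inhibitor GMNN by 1.07 ± 0.11.

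Helicase activation genes followed. MCM10 had 13.5, 11.9 and 12.1 CPM with CKI 2 mg/mL and gefitinib 75 µM, a rise of 1.95 ± 0.15 from gefitinib alone (adjusted p = 1.69e-14), and 5.65, 7.61 and 6.33 CPM with CKI 1 mg/mL, a rise of 1.01 ± 0.16. All of these libraries lay between gefitinib alone and untreated cells, and those with the higher CKI dose overlapped CKI 2 mg/mL alone. CDC45 rose by 1.39 ± 0.11 and CLSPN, the checkpoint mediator, by 1.56 ± 0.18 at CKI 2 mg/mL with 75 µM. PCNA rose by 1.19 ± 0.12, RRM2 by 1.02 ± 0.11, TYMS by 1.51 ± 0.19, FAM111B by 1.23 ± 0.20, FEN1 by 1.15 ± 0.09, UHRF1 by 0.77 ± 0.10, RFC3 by 0.60 ± 0.13 and MCM3 by 0.33 ± 0.07.

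A smaller set did not move with CKI 2 mg/mL. DUT, LIG1, POLA1, POLE, RPA1 and RPA3 were called at neither gefitinib dose; MCM7 and POLD1 were missed only at 50 µM, and GINS3 and MCM6 only at 75 µM. POLA1 had 12.2, 10 and 10.2 CPM in the combination with 75 µM against 11.4, 12 and 13.2 CPM with gefitinib alone, overlapping groups, and a log2 difference of -0.18 ± 0.12 (adjusted p = 0.198). POLE differed by 0.01 ± 0.13 and RPA3 by 0.13 ± 0.10. With CKI 1 mg/mL, MCM7 was the 1 member that fell, by 0.56 ± 0.11 at 50 µM and by 0.32 ± 0.11 at 75 µM. The call at 75 µM was lost under library totals and with the albumin term. MCM7 had 233, 248 and 194 CPM with CKI 1 mg/mL and 50 µM against 324, 383 and 288 CPM with 50 µM alone. RRM2 was not called at the lower CKI dose, with 35.4, 45.8 and 44 CPM at 75 µM against 44, 45.1 and 42.6 CPM without CKI, while at 2 mg/mL it had 103, 84.5 and 79 CPM.

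Albumin libraries lie in 3 of these 4 combination groups. Without them, the addition of CKI 2 mg/mL to 50 µM still gave 38 higher members and that of CKI 1 mg/mL to 75 µM gave 22, each from 1 library assumed to vary as the other groups do. All 3 libraries of CKI 2 mg/mL with 75 µM were of this kind, so that no value without them exists, and a fit with a term for the albumin libraries gave 39 higher members there. No share of all genes was counted in the fits without the albumin libraries or with their term. The addition of CKI 1 mg/mL to 50 µM held no such library. In the other replication list, 24 of 38 genes were higher and 4 lower with CKI 2 mg/mL at 75 µM. TICRR, which brings firing factors to the helicase, rose by 1.89 ± 0.13 and DTL by 1.55 ± 0.15, while POLD4 fell by 0.62 ± 0.14 and DCTD, deoxycytidylate deaminase, by 0.56 ± 0.08.

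YFSJ added to gefitinib changed almost no member. At 2.5 mg/mL edgeR called 0 members with 50 µM and 0 with 75 µM, where 0.0887% and 1.83% of all genes were called. DESeq2 likewise called 0 with each. At unadjusted p under 0.05 there were 1 and 9, and the share of all genes at that p was not counted. At 5 mg/mL TIMELESS, a fork protection gene, was called higher with 50 µM (0.32 ± 0.08, adjusted p = 0.0411), where 0.532% of all genes were higher, and MCM10 with 75 µM (0.61 ± 0.17, adjusted p = 0.0313), where 1.79% were. MCM10 had 4.63, 5.19 and 4.96 CPM with YFSJ 5 mg/mL and 75 µM against 3.39, 2.73 and 3.57 CPM without YFSJ. These libraries did not overlap, but all lay far under the 40.6 to 42.3 CPM of untreated cells. CDC6 differed by 0.16 ± 0.11, RRM2 by 0.27 ± 0.11 and PCNA by 0.17 ± 0.12, none called. The TIMELESS call was lost without gefitinib 50 µM library 1 or 2 or combination library 1 or 2, and 5 members were called without combination library 3. The MCM10 call was lost without any 1 of its 6 libraries.

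**Figure D3:**
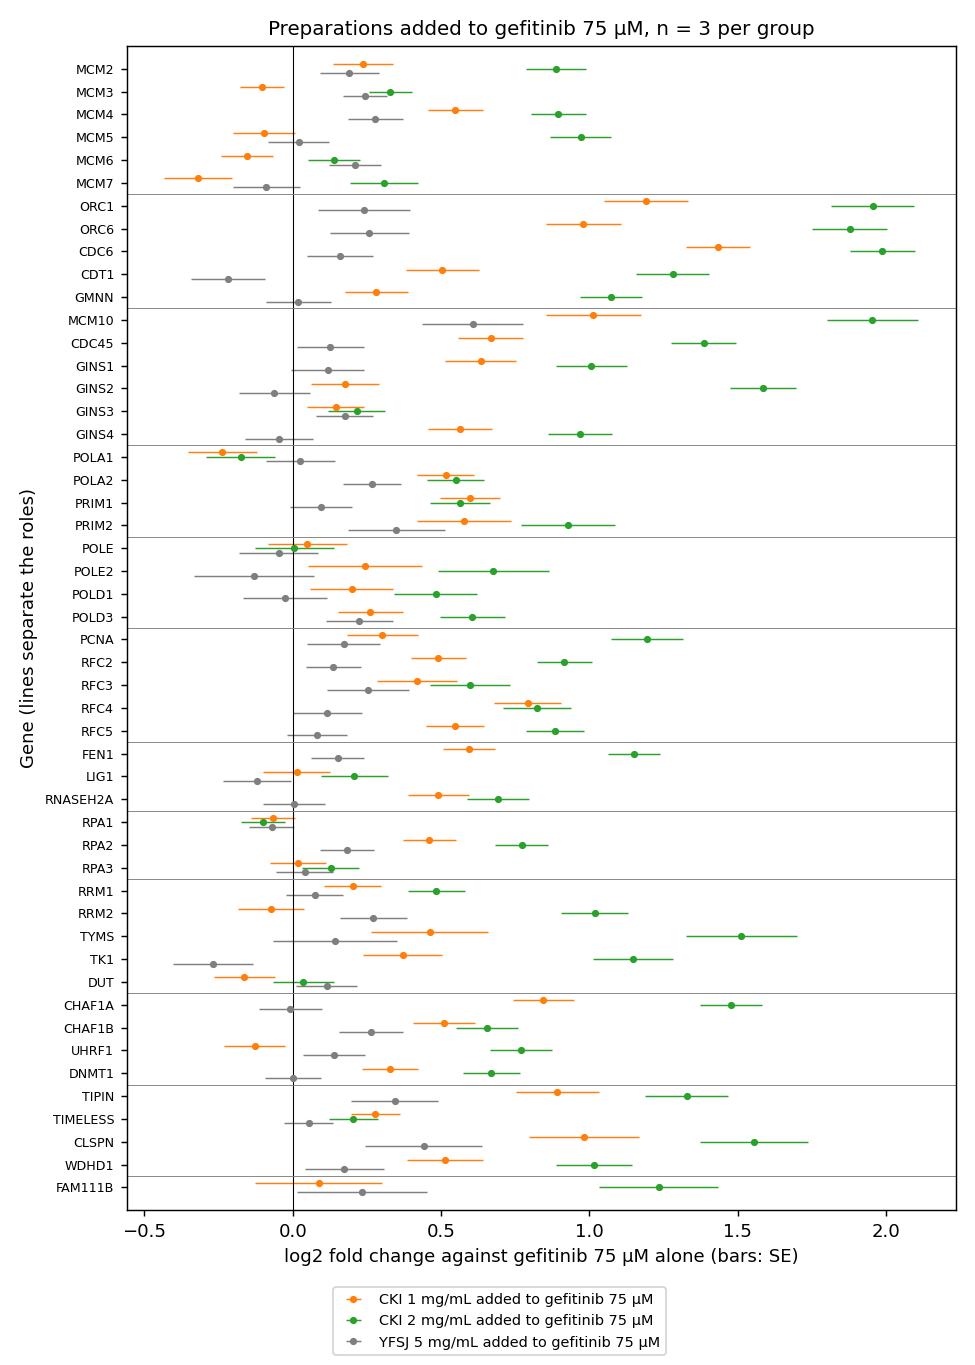
Log2 fold change of each member against gefitinib 75 µM alone when CKI 1 mg/mL (orange), CKI 2 mg/mL (green) or YFSJ 5 mg/mL (grey) was added; bars are SE, n = 3 per group, and lines separate roles. The green points of ORC1, ORC6, CDC6 and MCM10 lie between 1.88 and 1.99, that of POLA1 at -0.18 and that of POLE at 0.01, and the grey points run from -0.27 for TK1 to 0.61 for MCM10.

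Read from the other side, the fall with gefitinib differed with the preparation given beside it. Added to CKI 1 mg/mL, gefitinib lowered all 50 members at both doses, where 19.8% and 24.2% of all genes were lower, with medians of -0.90 and -0.74. At 75 µM libraries 2 and 3 of the combination carried albumin transcripts, and 48 to 49 members were called with 1 library left out. The largest falls at 75 µM were in UHRF1 (-2.04 ± 0.11), FAM111B (-1.93 ± 0.18) and RRM2 (-1.91 ± 0.11), and RPA2 had the smallest (-0.28 ± 0.09). UHRF1 had 177, 185 and 180 CPM with CKI 1 mg/mL alone and 39.1, 48.2 and 44.7 CPM with CKI 1 mg/mL and gefitinib 75 µM. Its combination libraries were within the range of gefitinib alone or below it. CDC6 changed by only -0.43 ± 0.10 there, against -2.18 ± 0.11 without CKI. Added to YFSJ at either dose, gefitinib lowered all 50 members in each of 4 comparisons, where 26.8%, 25.8%, 26.2% and 25.4% of all genes were lower, with medians from -1.91 to -1.71. With the albumin term, both comparisons that use YFSJ 2.5 mg/mL again gave 50 lower members. MCM10 fell most, by 3.07 ± 0.14 to 3.30 ± 0.14 on the log2 scale, and RPA1 least.

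Added to CKI 2 mg/mL, gefitinib lowered few members. At 50 µM RFC3 was the 1 member called, lower by -0.38 ± 0.12 (adjusted p = 0.0348), where 4.75% of all genes were lower, and at 75 µM 4 were lower and 8 higher, where 14.6% and 15.6% were. Medians were 0.01 and 0.05, against 0.00 for all genes at both doses. The 4 lower members at 75 µM were RFC3 (-0.62 ± 0.12), GINS3 (-0.33 ± 0.09), RRM1 (-0.28 ± 0.09) and TIMELESS (-0.23 ± 0.08). The 8 higher were MCM7 (0.54 ± 0.11), TK1 (0.49 ± 0.13), GINS2 (0.47 ± 0.10), CDT1 (0.42 ± 0.12), CDC6 (0.40 ± 0.10), CHAF1A (0.38 ± 0.10), MCM5 (0.33 ± 0.10) and MCM2 (0.29 ± 0.10). The share of members called was near that of all genes upward and below it downward, so these calls do not set the members apart. MCM7 had 326, 309 and 295 CPM with CKI alone and 441, 444 and 470 CPM with CKI and gefitinib 75 µM. RFC3 had 16.8, 15.5 and 18.7 CPM with CKI alone and 13.2, 10.2 and 9.72 CPM with both agents. Neither gene's groups overlapped. PCNA had 113, 87.7 and 105 CPM with CKI alone and 128, 108 and 109 CPM with both agents, overlapping groups (0.17 ± 0.12, adjusted p = 0.28). All 3 libraries of this combination carried the albumin transcripts and none with CKI alone did, and RNR2 took 1.39 to 1.56% of counts against 0.919 to 1.16%. With a term for the albumin libraries 3 members were lower and 3 higher at 75 µM. The RFC3 call at 50 µM was lost with that term and when any 1 library other than library 2 of CKI alone was left out.

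**Figure D4:**
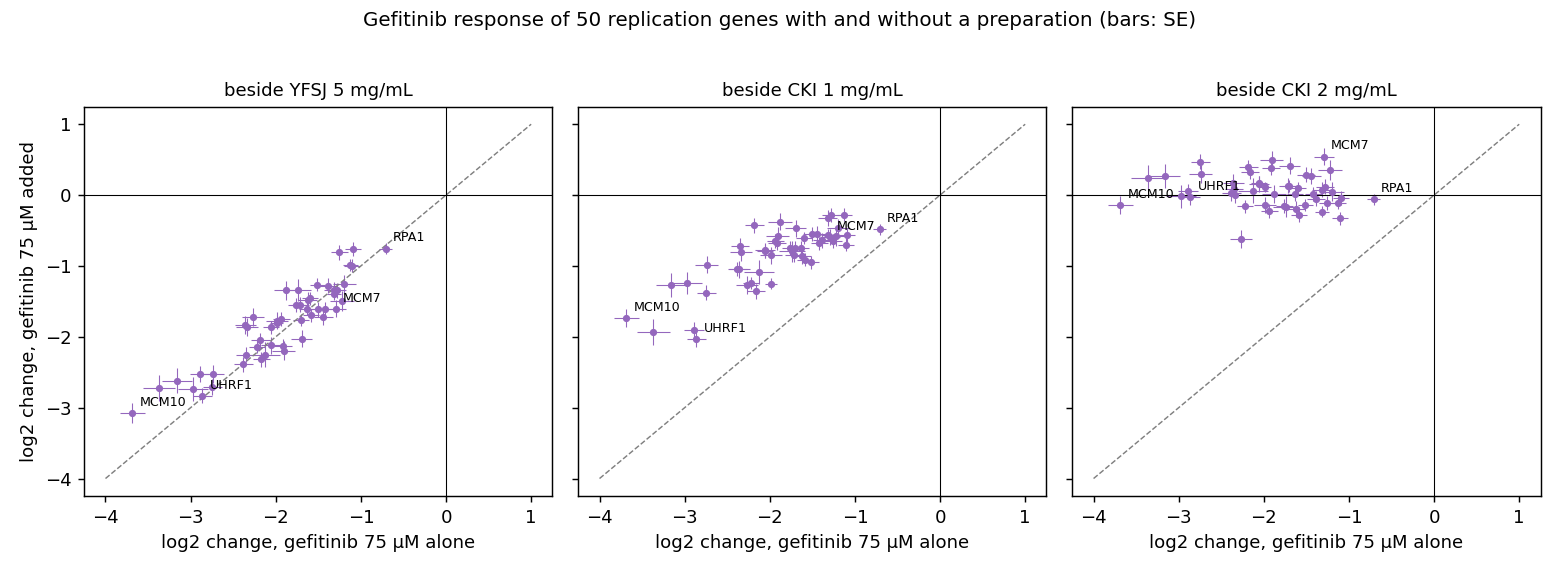
Log2 change of the 50 members with gefitinib 75 µM alone (x axis, against untreated 24 h) and when gefitinib 75 µM was added to YFSJ 5 mg/mL, CKI 1 mg/mL or CKI 2 mg/mL (y axis, against that preparation alone); bars are SE, and the dashed line marks equal change. Points lie along the line beside YFSJ, above it beside CKI 1 mg/mL and around 0 beside CKI 2 mg/mL, where MCM7 is the highest at 0.54.

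The interaction term tested this difference directly, as the joint change with gefitinib and the preparation less the sum of their single changes, averaged over the 4 dose pairs. For CKI all 50 members had a positive term that passed the threshold, where 20% of all genes did, with a median of 1.42 against 0.00 for all genes. Terms ran from 0.47 ± 0.08 for RPA1 (adjusted p = 3.81e-06) to 2.74 ± 0.14 for MCM10 (adjusted p = 2.16e-20), with TYMS at 2.58 ± 0.18, FAM111B at 2.46 ± 0.19 and GINS3 at 0.62 ± 0.10. A positive term here means that the combination lay higher than the sum of the falls, not higher than untreated cells. By single dose pair, 47 members passed with CKI 1 mg/mL and 50 µM, where 8.66% of all genes did and no library carried albumin transcripts, and 49, 50 and 50 passed in the other pairs, where 10.2%, 18.3% and 20.3% did. Without the albumin libraries 45 passed with CKI 1 mg/mL and 75 µM and 50 with CKI 2 mg/mL and 50 µM, and with a term for those libraries the averaged CKI interaction again gave 50. MCM10 had terms of 1.95 ± 0.20 at both CKI 1 mg/mL pairs and of 3.49 ± 0.20 and 3.55 ± 0.20 at the CKI 2 mg/mL pairs. In the other replication list 30 genes had positive terms, led by DTL (2.27 ± 0.14) and HELLS (2.05 ± 0.15), and 3 negative ones, led by POLD4 (-0.48 ± 0.15) and RRM2B (-0.40 ± 0.13).

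For YFSJ, 1 member passed, TIPIN, the partner of TIMELESS (0.50 ± 0.14, adjusted p = 0.0464), where 0.646% of all genes did. FAM111B (0.63 ± 0.19, adjusted p = 0.0645) and MCM10 (0.52 ± 0.15, adjusted p = 0.0509) had the largest terms and missed the threshold, POLD1 had the most negative, -0.30 ± 0.15, and 13 members had an unadjusted p under 0.05. The share of all genes at that unadjusted p was not counted. With the albumin term 1 member passed. By single dose pair 0 members passed in any of the 4 pairs, where 0%, 0.158%, 0.139% and 0.494% of all genes had a positive term called, and leaving out single libraries gave 0 to 3 calls, with 0 without any 1 of the 3 untreated libraries. The CKI and YFSJ interactions share the untreated and gefitinib libraries, and their difference was not tested.

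Across all 16 groups, no member had its highest mean in a group with gefitinib or CKI. The highest mean was in YFSJ 5 mg/mL for 20 members, untreated 0 h for 18 and untreated 24 h for 12. This order of means was not tested, and 0 members were called higher with YFSJ 5 mg/mL than in untreated cells at 24 h. The lowest mean fell in a gefitinib group without CKI for 41 members and in a gefitinib group with CKI for 9, among them RPA1, lowest with CKI 2 mg/mL and 75 µM at a mean of 100.7 CPM and named here after its value was seen. Gefitinib groups without CKI outnumbered those with it. No share over all genes was counted for the highest or the lowest means.

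Members with and without any of the 4 searched E2F words in their promoter window both fell with gefitinib and with CKI. With gefitinib 75 µM the median log2 change was -2.02 over the 20 members with a word and -1.74 over the 23 without. MCM10, with the largest fall, and RPA1, with the smallest, both belong to those without a searched word. The MCM10 window does hold TTTGGCGG, which differs from a searched word only in its last letter and was not searched. With CKI 2 mg/mL the medians were -1.37 and -0.82, and when CKI 2 mg/mL was added to gefitinib 75 µM they were 0.67 and 0.93. These are descriptions of overlapping ranges, and no test was made.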

How the data were processed

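RNA-seq libraries of H1975 cells were made from total RNA extracted with a PureLink kit and prepared with a NEBNext Ultra kit, per the labels' protocols. Reads were trimmed with Trim Galore 0.4.2 and aligned to hg19 with STAR 2.5.3a, and edgeR was also used, per the submitters' processing notes. The values used here are raw counts per gene symbol as deposited by the authors. The counting tool, its strand setting and the annotation are not given in the sources used here.

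Groups were taken from the sample labels, 3 libraries in each of 16. Counts were filtered with edgeR 4.0.16 (filterByExpr, minimum count 10, minimum total 15), which kept 15789 genes with 99.968% of counts, scaled by TMM and fitted in 1 quasi-likelihood model of all 16 groups with 32 residual degrees of freedom, under R 4.3.3. Benjamini-Hochberg adjustment ran over all genes tested, with a threshold of 0.05. Shares of all genes called are from this fit, and none were counted at an unadjusted p, by DESeq2 or in the other alternatives. SEs were derived from the log2 fold change and its F statistic (|log2 fold change| over root F). The interaction is the joint change less the sum of the single changes, averaged over 4 dose pairs. The common biological coefficient of variation was 0.102. Exon lengths and overlaps came from GENCODE 29 basic genes, whose build differs from hg19, and promoter windows from RefSeq. The scripts were tested on simulated data.

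The members, the list of 38 other replication genes, the marker lists and the tests were chosen with earlier results of these data known. Named genes were drawn from 17 fixed examples of the roles, the 3 lowest and 3 highest log2 fold changes of a comparison, members that went against the rest where 5 or fewer did, and the 2 largest changes in each direction of the other list. The rule set which genes could be named, and the text prints only some of them; 1 withheld item is not reported here. Same-numbered replicates did not deviate together (median correlation of deviations -0.01, against 0.00 for different numbers, with 15.6% of 360 pairs over 0.1), so the numbers were not used to pair libraries. No replicate pair agreed within sampling noise: the chi-square per gene was 3.68 or more. Alternatives were relative log expression factors, library totals, no filter, a replicate block, a term for the albumin libraries, an adjusted p of 0.01, only the groups compared, each library left out, the libraries that stood apart left out, and DESeq2 1.42.0. The dose pairs of the interactions were added after the data were seen.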

Additional observations from a re-analysis of the deposited data

Results flagged for a closer look

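The effect of gefitinib on the members differed between cells with and without CKI by the test of the difference itself. The interaction term passed in 50 of 50 members (edgeR quasi-likelihood test, adjusted p under 0.05, where 20% of all genes passed upward). On the log2 scale the term was 2.74 for MCM10, 2.58 for TYMS, 2.46 for FAM111B, 2.24 for CLSPN, 2.01 for RRM2 and 2.00 for CDC6. It was 1.93 for PCNA, 1.85 for CDC45, 1.82 for UHRF1, 1.65 for CDT1, 1.42 for MCM3, 1.42 for RFC3, 1.35 for GMNN and 1.31 for FEN1. It was smaller for POLA1 at 1.14, POLE at 0.96, RPA3 at 0.80, GINS3 at 0.62 and RPA1 at 0.47.

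With YFSJ the same test passed in 1 of 50 members, TIPIN, at 0.50, where 0.646% of all genes passed upward. With any 1 untreated library left out 0 members passed, and 0 passed in any single dose pair.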

How the results depend on the processing

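The gefitinib comparisons with untreated cells and with YFSJ and the CKI interaction gave 50 called members under each library left out. Values of single members were recomputed only for some of those already called. Of these 5014 values, 4789 kept their direction and side of the threshold, 225 kept the direction only and 0 reversed. The stricter cutoff on adjusted p reused the same fit, and refits without a library shared all others. A reversal was thus unlikely beforehand, and the 0 reversals say nothing of members not called. With one library left out, the counts of called members ran from 45 to 48 for CKI 1 mg/mL, 49 to 50 for CKI 2 mg/mL, 24 to 27, 26 to 28, 39 to 42 and 40 to 43 for CKI added to gefitinib (1 mg/mL with 50 and 75 µM, then 2 mg/mL), and 8 to 15 for gefitinib 75 µM added to CKI 2 mg/mL.

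The counts that moved were those of few calls, and the cause was not tested. For 24 h against 0 h (12 calls) there were 5 calls at an adjusted p of 0.01, 0 with only these groups, 0 without the 3 libraries that stood apart (0 h libraries 1 and 2, and library 2 of YFSJ 2.5 mg/mL with gefitinib 75 µM), and 2 to 16 with one library left out, lowest without 0 h library 1 and highest without 0 h library 3. For YFSJ 2.5 mg/mL (1 call) there were 0 with library totals, without the filter, with the albumin term and at 0.01, 3 with only these groups, 2 by DESeq2, and 0 to 1 with one library left out. For YFSJ 5 mg/mL (2 calls) there was 1 with relative log expression factors, 1 with library totals, 1 with the replicate block, 0 without the filter and at 0.01, 4 with only these groups, 4 by DESeq2, and 0 to 2 with one library left out. For YFSJ 5 mg/mL added to gefitinib 50 µM (1 call) there were 2 with library totals, 2 by DESeq2, 0 without the filter, at 0.01 and with only these groups, and 0 to 5 with one library left out. For the same with 75 µM (1 call) there were 2 with the albumin term, 2 by DESeq2, 3 with only these groups, 0 at 0.01 and 0 with any library left out. YFSJ 2.5 mg/mL added to 75 µM (0 calls) gave 0 to 1. For gefitinib 50 µM added to CKI 2 mg/mL (1 call) there were 0 with library totals, without the filter, with the albumin term, without the albumin libraries and at 0.01, and 0 to 1 with one library left out. For 75 µM (12 calls) there were 6 with the albumin term. For the YFSJ interaction (1 call) there were 0 with library totals, without the filter, with the replicate block, at 0.01, with only these groups and in each dose pair, 5 without the libraries that stood apart, 3 by DESeq2, and 0 to 3 with one library left out. The replicate block changed no other count by more than 1.5 times.

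Library totals shifted the median of all genes by over 0.1 on the log2 scale in 11 of 29 comparisons. Leaving out the albumin libraries gave no value where a group held only such libraries, nor for the averaged interactions.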
